A study of Mus musculus with 8 samples.

Results

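Interferon-stimulated genes were followed in hematopoietic stem cells (HSCs) of mice that had received Poly:IC, a synthetic double-stranded RNA that triggers interferon production. The set holds 52 genes chosen by symbol as known targets of interferon. No rule on their counts chose them, although earlier results of these data were known when the set was drawn up. All 52 were among the 22065 named genes of the count table, and 50 passed the expression filter, which left 16444 genes to test. The 2 that did not pass were Cxcl9 and Ifi204. The data are RNA-seq counts from 8 libraries, 4 of Mitol KO HSCs and 4 of Control HSCs, each prepared from 100 sorted cells of the bone marrow gate CD150+ CD48- EPCR+ Lineage-. Mice were C57BL/6, 8 to 10 weeks of age, and cells were taken 1 week after Poly:IC. Mitol KO mice carried Mitol Flox/Flox alleles and MX1-cre, and Control mice were Flox/Flox littermates without Cre, so that floxed alleles and Poly:IC were common to both groups. Cre is under the interferon-responsive Mx1 promoter, which acts in many blood and non-blood cells, so the deletion was not limited to HSCs. An untreated group was not analysed here, and the comparison is therefore of genotypes after Poly:IC, not of Poly:IC against none. The labels do not say whether libraries came from separate mice, and p-values measure the spread between these libraries.

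Type I interferons bind the receptor made of IFNAR1 and IFNAR2 and act through JAK1 and TYK2 on a complex that includes STAT2 and IRF9 and binds the interferon-stimulated response element (ISRE) in promoters. Type II interferon acts at the gamma-activated site (GAS) and through IRF1, and is a strong inducer of guanylate-binding proteins and immunity-related GTPases. The products block viral entry, sense and degrade viral RNA, attack membranes around intracellular pathogens or attract lymphocytes, and HSCs respond to a burst of interferon by leaving dormancy for a time.

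Counts on named genes ran from 7214935 to 12398138 per library, and the 52 genes held 0.384% of all counts. Marchf5, which encodes MITOL, was at 276, 232, 308 and 281 normalized counts (counts divided by DESeq2's size factors) in Mitol KO replicates 1 to 4 and at 299, 312, 333 and 262 in Control replicates 1 to 4. The difference was -0.15 on the log2 scale (standard error 0.13, edgeR, adjusted p = 0.498). Counts over the whole gene cannot separate deleted from remaining exons, so they do not check the labels. All 10 HSC markers examined were detected. Procr (EPCR) and Slamf1 (CD150) encode markers of the gate, and the study also defines long-term HSCs by c-Kit. Detection of these genes and of Kit is thus no separate check of the sort. In Mitol KO HSCs 9 markers were below Control and 1 above, with a median log2 fold change of -0.24. Lower calls were 3, Kit and Hlf among them (log2 fold changes -0.75 and -0.79), beside 3.75% of all tested genes. The markers summed to between 27390 and 31655 normalized counts in Mitol KO and between 39348 and 46611 in Control libraries. Such sums weigh markers with many counts the most. In such bulk samples, fewer cells of a type and less RNA per cell cannot be told apart.

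The 250 bases before the RefSeq start were searched on both strands for the ISRE core GAAANNGAAA and the GAS core TTCNNNGAA, where N is any base. A window was held for 39 of the 52 genes. The ISRE core was in 16 of the 39 (41.0%), against 3.46% of 27025 genes with a window, and the GAS core was in 9 (23.1%), against 8.13%. All 4 guanylate-binding proteins and 3 of 4 immunity-related GTPases with a window held the ISRE core. Ifitm1 and Ifitm3 held neither motif, Ifitm2 held the ISRE core, and Irf1 held the GAS core alone. A match is a description of the letters and not a binding site, and its absence says nothing of sequence outside the window. The stretches below, from RefSeq and placed by exact match on GRCm39, show the motifs of members that the results turn on, with motif bases in capitals on whichever strand they lie. Irf1 is shown as the transcription factor that fell, Gbp5 and Irgm2 for the GTPase families, Bst2 for the membrane factors, Stat2 for the complex that binds the ISRE, Isg15 and Ifit1 as common interferon reporters and Cxcl10 for its wide spread between libraries.
Irf1 (chr11:53660731-53660779, + strand): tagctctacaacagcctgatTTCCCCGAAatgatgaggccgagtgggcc
Gbp5 (chr3:142202510-142202549, + strand): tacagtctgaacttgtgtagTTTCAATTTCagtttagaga
Irgm2 (chr11:58105708-58105768, + strand): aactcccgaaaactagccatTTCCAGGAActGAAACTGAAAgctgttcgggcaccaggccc
Bst2 (chr8:71990211-71990266, - strand): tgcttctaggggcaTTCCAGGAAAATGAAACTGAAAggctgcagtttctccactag
Stat2 (chr10:128106125-128106174, + strand): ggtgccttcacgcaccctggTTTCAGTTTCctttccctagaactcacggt
Isg15 (chr4:156285312-156285373, - strand): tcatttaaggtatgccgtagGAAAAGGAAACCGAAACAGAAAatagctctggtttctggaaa
Ifit1 (chr19:34618165-34618233, + strand): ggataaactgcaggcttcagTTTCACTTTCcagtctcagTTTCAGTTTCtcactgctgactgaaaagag
Cxcl10 (chr5:92496932-92496981, - strand): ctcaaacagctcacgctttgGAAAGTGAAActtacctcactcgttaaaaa
In Irgm2 the GAS and ISRE cores lay 2 bases apart, and in Isg15 and Bst2 consecutive matches of the ISRE core shared bases. In Bst2 the GAS core also shared the bases GAA with the first of these, so the capitals run through both. Gbp5 held the GAS core as well, outside the stretch shown. In the GENCODE gene annotation the stretches of Gbp5 (40 bases) and Irgm2 (61 bases) lie wholly inside those genes. Of the Gbp5 stretch, 16 bases lie in an exon. Both stretches thus precede a RefSeq start but not the start of the GENCODE gene. The Irf1 stretch (49 bases) lies wholly inside Gm12216 and in an exon of Gm74496. The Ifit1 stretch (69 bases) lies wholly inside Ifit1bl2 and the Cxcl10 stretch (50 bases) inside Art3.

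Loss of Mitol was accompanied by higher Ifitm3 and Ifitm1 and lower Irf1, and by no call in the remaining 47 genes tested. Higher calls were 2 of 50 (4.0%), where 4.68% of all tested genes were called higher (edgeR, adjusted p under 0.05). Lower calls were 1 of 50 (2.0%), where 3.75% of all tested genes were called lower. At an unadjusted p under 0.05, 5 members were higher (13.6% of all tested genes) and 7 were lower (12.8% of all tested genes). DESeq2, the tool used in the study, called 4 of 52 higher (6.12% of all genes) and 4 lower (4.37% of all genes), adding Ifitm2 and Lgals3bp to the former and Gbp2, Gbp6 and Irgm2 to the latter. Libraries of the groups did not overlap for 3 members that were higher, Ifitm3, Ifitm2 and Lgals3bp (8.17% of all tested genes), and for 1 that was lower, Irf1 (7.18% of all tested genes). These shares lie near the background, so the set as a whole did not stand apart in its number of calls. The median log2 fold change, of Mitol KO against Control throughout, was -0.01 over members and -0.02 over all tested genes, with 23 members above 0 and 27 below. The median 95% interval reached 0.40 on either side on the log2 scale, so an interval of that width around a smaller difference includes 0.

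**Figure D1:**
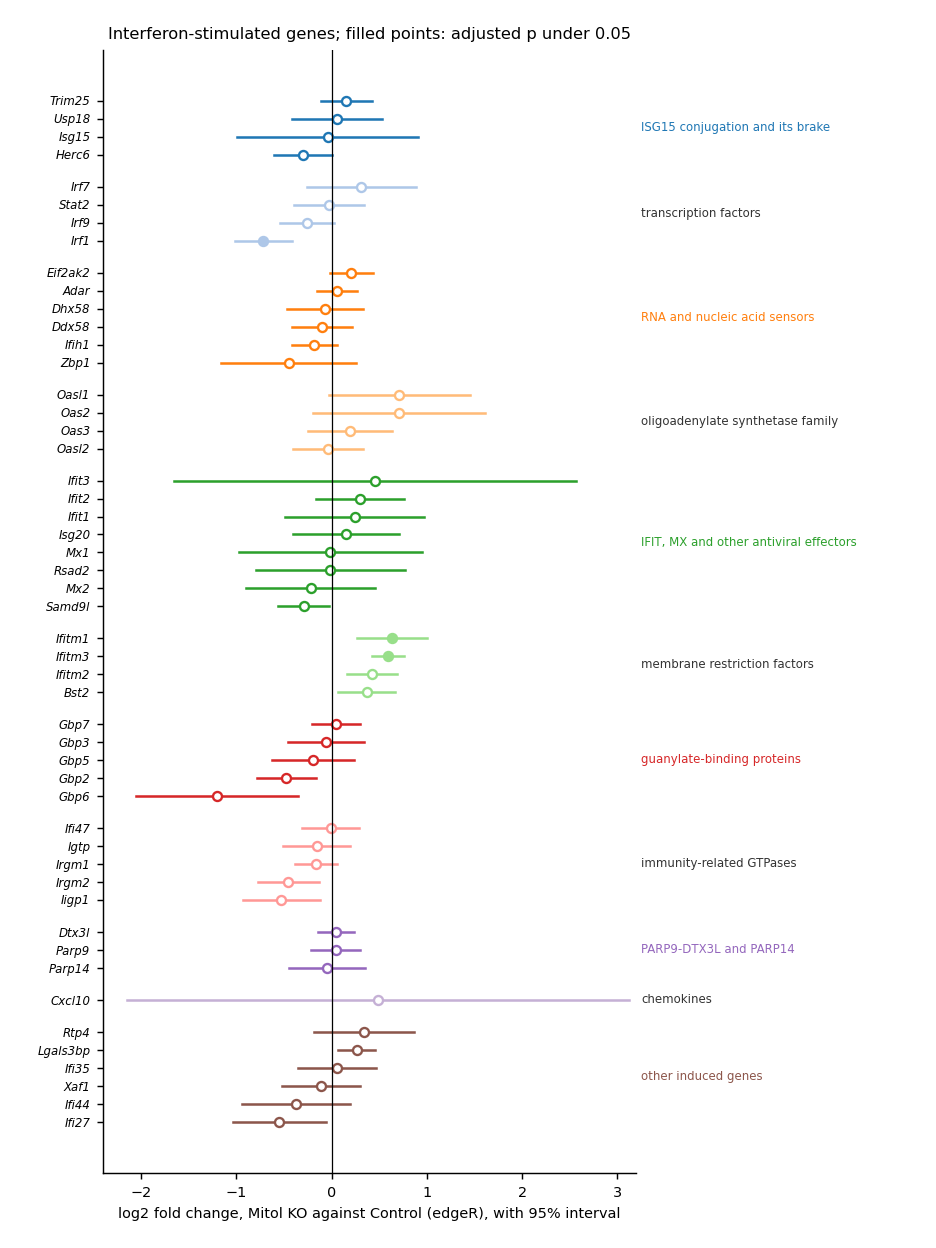
The log2 fold change of Mitol KO against Control HSCs for the 50 tested members, grouped by role, with 95% intervals from edgeR and filled points for an adjusted p under 0.05. The 4 membrane restriction factors lie to the right of 0 and Irf1 lies at -0.72, while the intervals of Cxcl10 and Ifit3 are the widest.

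The 4 membrane restriction factors had a median log2 fold change of 0.51, and all 4 were above 0 in every fit that was run. IFITM proteins sit in plasma and endosomal membranes and block the fusion of enveloped viruses, and their 3 genes studied here lie close together on chromosome 7. Ifitm3 (GRCm39 chromosome 7, 140589499 to 140591282, minus strand) was at 4576, 4745, 4408 and 4421 normalized counts in Mitol KO HSCs and at 3065, 3169, 3014 and 2639 in Control HSCs. The groups were separate, with the lowest Mitol KO library well above the highest Control library. The difference was 1.51-fold, a log2 fold change of 0.59 (standard error 0.08, 95% interval 0.42 to 0.76, edgeR, adjusted p = 0.00381, 4 of 4 Mitol KO libraries above every Control library). The call was kept when any library was left out, with log2 fold changes from 0.54 to 0.62, and its adjusted p ranged from 9.5e-10 to 0.00557 over other normalizations, filters and tools. The antisense gene Gm57251 covers 60.9% of the exon bases of Ifitm3 on the opposite strand and was not analysed here. The library protocol as described has no step that marks strand, so reads of the shared bases cannot be assigned.

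Ifitm1 (chromosome 7, 140546316 to 140549743, plus strand), which acts mainly at the cell surface, was at 4019, 5356, 4861 and 5534 normalized counts in Mitol KO HSCs and at 4177, 3408, 2800 and 2208 in Control HSCs. Here Control replicate 1 lay above Mitol KO replicate 1, while the other 3 Mitol KO libraries exceeded all Control libraries. On the log2 scale the difference was 0.63 (standard error 0.17, 95% interval 0.27 to 1.00, edgeR, adjusted p = 0.0386). Its call depended on which library was left out, and was kept in 3 of 8 such fits. These were without Mitol KO replicate 1 or 4 or Control replicate 1 (edgeR, adjusted p = 0.0439, 0.0384 and 0.0178). Without Mitol KO replicate 2 or 3 the adjusted p was 0.0957 or 0.0743, and without Control replicate 2, 3 or 4 it was 0.0818, 0.0966 or 0.0841, at log2 fold changes of 0.50 to 0.67. Ifitm2 (chromosome 7, 140534738 to 140536228, minus strand) was at 519, 432, 482 and 448 normalized counts in Mitol KO and at 389, 311, 381 and 308 in Control HSCs. Its groups were separate too, at a log2 difference of 0.42 (standard error 0.12, 95% interval 0.16 to 0.69), and it just missed the threshold (edgeR, adjusted p = 0.0506), with 0.0125 to 0.0747 over other normalizations, filters and tools. Of 75-base windows in its transcripts, 19.0% occur in another gene or pseudogene, so its counts may hold or lack reads of relatives. Gm74434 covers 29.3% of its exon bases on the opposite strand and Gm45717 covers 26.8% on the same strand.

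Bst2 encodes tetherin, which holds budding virions at the cell surface and is also a marker of plasmacytoid dendritic cells. It was at 411, 451, 438 and 414 normalized counts in Mitol KO and at 426, 326, 284 and 281 in Control HSCs. Mitol KO libraries were alike, and Control replicate 1 lay among them. The log2 fold change was 0.37 (95% interval 0.06 to 0.67, edgeR, adjusted p = 0.119). Of the 7 plasmacytoid dendritic cell markers, 3 were in the table. With Bst2 included they summed to between 586 and 723 normalized counts in Mitol KO and between 436 and 622 in Control libraries. Bst2 alone ran from 411 to 451 and from 281 to 426, so the sums are not a measure apart from it. Irf8, another of the 3, overlapped between the groups, at 131 to 251 and 83.5 to 209. The part of these markers in the result was not tested.

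**Figure D2:**
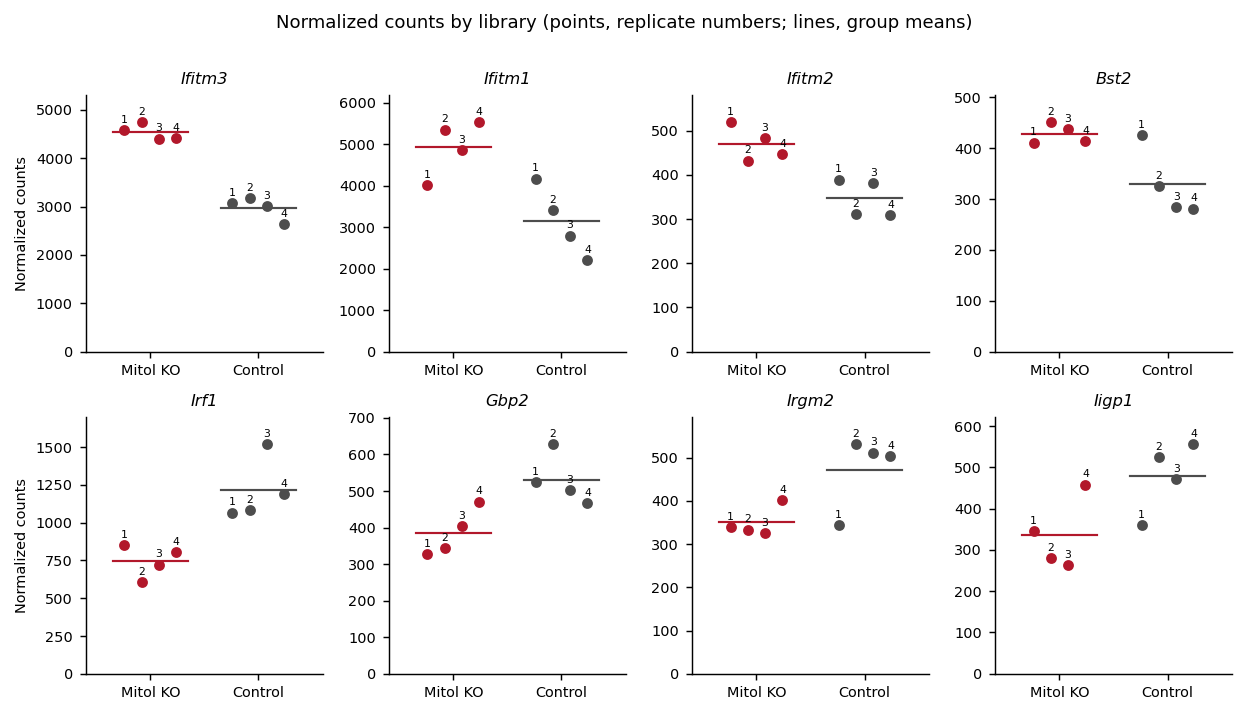
Normalized counts in each library for the 4 membrane restriction factors and for Irf1, Gbp2, Irgm2 and Iigp1, as points with replicate numbers and lines at group means, on axes that start at 0. All Mitol KO points lie above all Control points for Ifitm3 and Ifitm2 and below them for Irf1, while 1 pair of libraries crosses for Ifitm1 and for Gbp2.

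Among the transcription factors, Irf1 was lower and Stat2, Irf9 and Irf7 were not called. IRF1 is induced by interferons and in turn switches on antiviral and antigen-presentation genes. Irf1 (chromosome 11, 53660812 to 53669200, plus strand) was at 854, 608, 723 and 806 normalized counts in Mitol KO HSCs and at 1067, 1082, 1519 and 1187 in Control HSCs. Every Mitol KO library was below every Control library. Its level was 0.608 of that in Control, a log2 fold change of -0.72 (standard error 0.14, 95% interval -1.01 to -0.42, edgeR, adjusted p = 0.0136). The call was kept without any library, with log2 fold changes from -0.78 to -0.59, and over other normalizations, filters and tools its adjusted p ranged from 0.000171 to 0.0145. Antisense genes overlap it. Gm17334 covers 31.4% and Gm12216 covers 13.2% of its exon bases on the opposite strand, and reads of the shared bases cannot be assigned here either. Gm17334 ran from 255 to 495 normalized counts in Mitol KO and from 524 to 1041 in Control libraries, with a log2 fold change of -1.06 (edgeR, adjusted p = 0.0170). Gm12216 was at -1.07 (edgeR, adjusted p = 0.00618), so counts assigned to all 3 of these overlapping genes fell.

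Stat2, part of the ISRE-binding complex, was at 461, 402, 557 and 750 normalized counts in Mitol KO and at 516, 619, 529 and 522 in Control HSCs, a log2 difference of -0.03 (95% interval -0.40 to 0.34, edgeR, adjusted p = 0.938). Irf9, the DNA-binding subunit of that complex, was at 704, 769, 882 and 1004 in Mitol KO and at 843, 1069, 1132 and 926 in Control HSCs. This was a log2 difference of -0.26 (95% interval -0.54 to 0.02, edgeR, adjusted p = 0.228). For both genes the groups overlapped. Irf7, which amplifies interferon production and is itself strongly induced, was at 229, 221, 254 and 505 normalized counts in Mitol KO and at 222, 315, 248 and 177 in Control HSCs. Mitol KO replicate 4 stood above every other library. With it the log2 fold change was 0.31 (95% interval -0.26 to 0.88, edgeR, adjusted p = 0.488), and without it -0.03.

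Guanylate-binding proteins and immunity-related GTPases, which are recruited to vacuoles and membranes of intracellular pathogens, lay mostly below 0 without a call. Of the 5 guanylate-binding proteins 4 were below 0 (median log2 fold change -0.20) and Gbp7 was at 0.05, and at -0.01 under upper-quartile scaling. Gbp2 (chromosome 3, 142326349 to 142343779, plus strand) was at 328, 343, 404 and 471 normalized counts in Mitol KO and at 524, 628, 503 and 467 in Control HSCs. Only Mitol KO replicate 4 reached into the Control range. On the log2 scale the difference was -0.47 (standard error 0.14, 95% interval -0.78 to -0.17, edgeR, adjusted p = 0.0567), and without Mitol KO replicate 4 it was -0.56 (edgeR, adjusted p = 0.0164). Gbp6 was low, at 17.2, 23.9, 11.9 and 20.1 normalized counts in Mitol KO and at 17.1, 54.3, 44.3 and 49.4 in Control HSCs, with Control replicate 1 inside the Mitol KO range. Its log2 fold change was -1.21 (95% interval -2.05 to -0.36, edgeR, adjusted p = 0.0742), and without Control replicate 1 it was -1.44 (edgeR, adjusted p = 0.0307). Gbp6 shares 52.6% of its transcript windows with other genes such as Gbp10, so its counts are uncertain. Gbp3, Gbp5 and Gbp7 had log2 fold changes of -0.06, -0.20 and 0.05, with intervals that spanned 0.

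All 5 immunity-related GTPases were below 0 (median log2 fold change -0.16), Ifi47 barely so at -0.01 and at 0.01 without the expression filter, and 0 of them passed the threshold. When a library was left out, Igtp reached 0.01 and Ifi47 reached 0.08 at most. At an unadjusted p under 0.05 there were 2, Irgm2 and Iigp1. Irgm2 (chromosome 11, 58090444 to 58113615, plus strand), a regulator of the family's effector GTPases, was at 340, 334, 326 and 402 normalized counts in Mitol KO and at 344, 531, 511 and 503 in Control HSCs. Mitol KO values were close to each other, and Control replicate 1 stood with them and not with its own group. The log2 fold change was -0.45 (95% interval -0.77 to -0.14, edgeR, adjusted p = 0.0716). It was called without Control replicate 1 (-0.56, edgeR, adjusted p = 0.0225) and without Mitol KO replicate 4 (-0.51, edgeR, adjusted p = 0.0419). Irgm2 and its neighbour Igtp overlap and share windows (5.83% of those of Irgm2), so a few reads may be exchanged between them. Iigp1, an effector GTPase that breaks open vacuoles, was at 346, 281, 263 and 458 in Mitol KO and at 360, 525, 472 and 556 in Control HSCs. This was a log2 difference of -0.53 (95% interval -0.93 to -0.12, edgeR, adjusted p = 0.0953), and it was called without Mitol KO replicate 4 (-0.69, edgeR, adjusted p = 0.0158). Igtp and Irgm1 were at -0.16 each.

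ISG15 is a ubiquitin-like protein that is attached to other proteins after interferon, HERC6 and TRIM25 are ligases of that system, and USP18 removes ISG15 and blocks the type I receptor. Isg15 was at 18.0, 26.0, 36.6 and 47.6 normalized counts in Mitol KO and at 17.1, 61.7, 24.5 and 26.0 in Control HSCs. The groups overlapped fully, and the highest library was Control replicate 2. On the log2 scale the difference was -0.04 with a wide 95% interval of -0.99 to 0.91 (edgeR, adjusted p = 0.969), so differences of nearly 2-fold either way remained possible. Trim25 was at 0.15, Usp18 at 0.05 and Herc6 at -0.30 on the log2 scale, none past the threshold.

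The sensors, which recognise foreign or misplaced nucleic acid, did not differ beyond their spread. Ifih1 (MDA5), Ddx58 (RIG-I) and Dhx58 (LGP2), the helicases that bind double-stranded RNA such as Poly:IC, had log2 fold changes of -0.18, -0.10 and -0.07. Eif2ak2, the kinase PKR that halts translation, was at 0.21 (95% interval -0.02 to 0.43), and Zbp1, a sensor of Z-form nucleic acid that triggers necroptosis, was at -0.45 (95% interval -1.16 to 0.26). Adar, which edits double-stranded RNA and so keeps self RNA from the sensors, was at 2026, 2097, 1878 and 2405 normalized counts in Mitol KO and at 1856, 2124, 2174 and 1818 in Control HSCs. This was a log2 difference of 0.06 (95% interval -0.15 to 0.27, edgeR, adjusted p = 0.752), among the narrower intervals of the set.

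Oligoadenylate synthetases make a second messenger of the antiviral response, and the related Oasl1 protein lacks that activity. Of the 4 genes 3 were above 0, with a median log2 fold change of 0.45 that fell to 0.03 without Mitol KO replicate 4. Oas2 was at 582, 532, 936 and 2214 normalized counts in Mitol KO and at 684, 779, 807 and 313 in Control HSCs. Its highest and lowest libraries, Mitol KO replicate 4 and Control replicate 4, differed 7.09-fold. The log2 fold change was 0.71 (95% interval -0.19 to 1.61, edgeR, adjusted p = 0.301) and 0.09 in the lowest of the fits that left out a library. Oasl1 was at 139, 123, 166 and 313 in Mitol KO and at 93.6, 175, 117 and 61.1 in Control HSCs, a log2 difference of 0.71 (95% interval -0.03 to 1.45, edgeR, adjusted p = 0.207). Oas3 and Oasl2 were at 0.19 and -0.03.

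IFIT proteins bind viral RNA lacking host caps, MX GTPases trap viral particles, and viperin (Rsad2) makes a chain-terminating nucleotide. Mx1, whose promoter drives Cre in this model, was at 56.4, 108, 155 and 208 normalized counts in Mitol KO and at 68.6, 268, 98.0 and 89.8 in Control HSCs. Group means were 132 and 131, and the log2 fold change was -0.01 (95% interval -0.97 to 0.95, edgeR, adjusted p = 0.989). The gene was thus expressed in both groups at 1 week, with an SD of 64.9 and 92.2 within the groups. Ifit1 was at 66.5, 90.4, 197 and 213 in Mitol KO and at 97.6, 142, 134 and 99.7 in Control HSCs, a log2 difference of 0.24 (95% interval -0.49 to 0.97, edgeR, adjusted p = 0.691). Ifit3 was at 0, 3.12, 42.1 and 58.2 normalized counts in Mitol KO and at 10.6, 36.2, 23.5 and 3.59 in Control HSCs. These are few reads, 23.5% of the windows in its transcripts are shared with Ifit3b, and its interval of -1.66 to 2.57 covers large differences in either direction (edgeR, adjusted p = 0.807). Rsad2 was at 145, 69.6, 347 and 223 in Mitol KO and at 183, 247, 187 and 169 in Control HSCs, with equal group means of 196 and 197. Its log2 fold change was -0.02 (95% interval -0.80 to 0.77, edgeR, adjusted p = 0.985). Ifit2, Isg20, Mx2 and Samd9l were at 0.30, 0.15, -0.22 and -0.29, and of these Samd9l alone had an unadjusted p under 0.05 (0.0348, edgeR, adjusted p = 0.154).

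The chemokines CXCL9 and CXCL10 attract activated T and NK cells through CXCR3, and their transcripts were concentrated in single libraries. Cxcl10 was at 16.4, 3.12, 60.4 and 175 normalized counts in Mitol KO and at 1.32, 167, 10.4 and 0 in Control HSCs. Mitol KO replicate 4 and Control replicate 2 were highest, and the log2 fold change of 0.49 has a 95% interval of -2.14 to 3.12 (edgeR, adjusted p = 0.836). The value turned on those 2 libraries, at 3.92 without Control replicate 2 and -0.73 without Mitol KO replicate 4, and in the other fits that left out a library it lay between 0.06 and 0.88. It was 2.15 by limma-voom and 1.89 with the replicate block. Cxcl9 had 478 normalized counts in Control replicate 2, 3.13 in Mitol KO replicate 1 and 0 in the other 6 libraries, where a count of 0 allows at most 2.69 to 3.96 normalized counts in the Control libraries and 2.75 to 3.17 in the Mitol KO libraries by counting error. The main fit did not test Cxcl9 because the filter removed it, and the fits without the filter and by DESeq2 did not call it. Reads carry no molecular identifiers, so such limits cover counting error alone.

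Among the remaining induced genes, Lgals3bp, which encodes a secreted galectin-binding glycoprotein, was at 2864, 2956, 2457 and 3223 normalized counts in Mitol KO and at 2440, 2376, 2260 and 2390 in Control HSCs. All Mitol KO libraries were above all Control libraries, by a small amount, at a log2 difference of 0.26 (standard error 0.09, 95% interval 0.07 to 0.46, edgeR, adjusted p = 0.0866). The range of its adjusted p over other normalizations, filters and tools was 0.0397 to 0.177. Ifi27, a mitochondrial protein that sensitises cells to death, had a log2 fold change of -0.55 (95% interval -1.03 to -0.06, edgeR, adjusted p = 0.144). Ifi44, Xaf1, Ifi35 and Rtp4 were at -0.38, -0.11, 0.05 and 0.34. Ifi204 ran from 2.08 to 4.70 normalized counts in Mitol KO and from 1.32 to 12.8 in Control libraries. Dtx3l, Parp9 and Parp14, an E3 ligase and its ADP-ribosyltransferase partners in the interferon response, lay between -0.05 and 0.05. Dtx3l was at 2127, 1960, 2202 and 2396 in Mitol KO and at 2039, 2175, 2207 and 1895 in Control HSCs (95% interval of the log2 fold change -0.15 to 0.24, edgeR, adjusted p = 0.790).

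Levels per kilobase of exon differed widely within the set. Ifitm1 was highest, at 3954 ± 543 normalized counts per kb in Mitol KO and 2519 ± 674 in Control HSCs (SD, n = 4), and Ifitm3 followed at 3542 ± 123 and 2320 ± 180, within the spread of Ifitm1. The next was Lgals3bp, at 547 ± 60.4 and 450 ± 14.5 per kb. Ifitm2 (471 ± 38.7 and 347 ± 43.7), Dtx3l (379 ± 31.6 and 363 ± 24.9) and Bst2 (353 ± 15.9 and 271 ± 55.8) came below it. Trim25 was at 300.2 ± 58.3 and 267 ± 16.3, and Adar at 258 ± 27.3 and 245 ± 22.4. Dtx3l and Ifitm2 did not differ beyond their spread in Control HSCs, nor did Trim25 and Adar. The genes most used as interferon reporters were far lower, with Isg15 at 41.0 ± 16.5 and 41.4 ± 25.5 per kb, Mx1 at 39.1 ± 19.3 and 38.9 ± 27.3, and Ifit1 at 19.1 ± 9.95 and 15.9 ± 3.07. Gene lengths are from GENCODE exons merged over all transcripts (7.42 kb for Ifit1), and 1 length per gene was used for every library. Values per kb are therefore too low for a gene whose expressed transcript is shorter. Gm46878 covers 31.1% of the exon bases of Isg15 on the opposite strand, and reads of the shared bases cannot be assigned.

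Libraries of the same genotype differed in the level of the whole set. Mitol KO replicate 4 was the highest of its group in 37 of 50 members (74.0%, against 30.8% of all tested genes), and Control replicate 2 was the highest of its group in 31 (62.0%, against 20.9%). Neither was the lowest of its group in any member. The mean log2 level over members was 8.34, 8.36, 8.66 and 9.04 in Mitol KO replicates 1 to 4 and 8.38, 8.96, 8.66 and 8.37 in Control replicates 1 to 4. Each group thus held 1 library with a raised level of the set, 1 in between and 2 that were low. Genes that did not follow the pattern in the Mitol KO group included Ifitm3, Ifitm2, Bst2, Ifit2, Ifi27 and Ifi47, in which replicate 4 was not the highest.

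**Figure D3:**
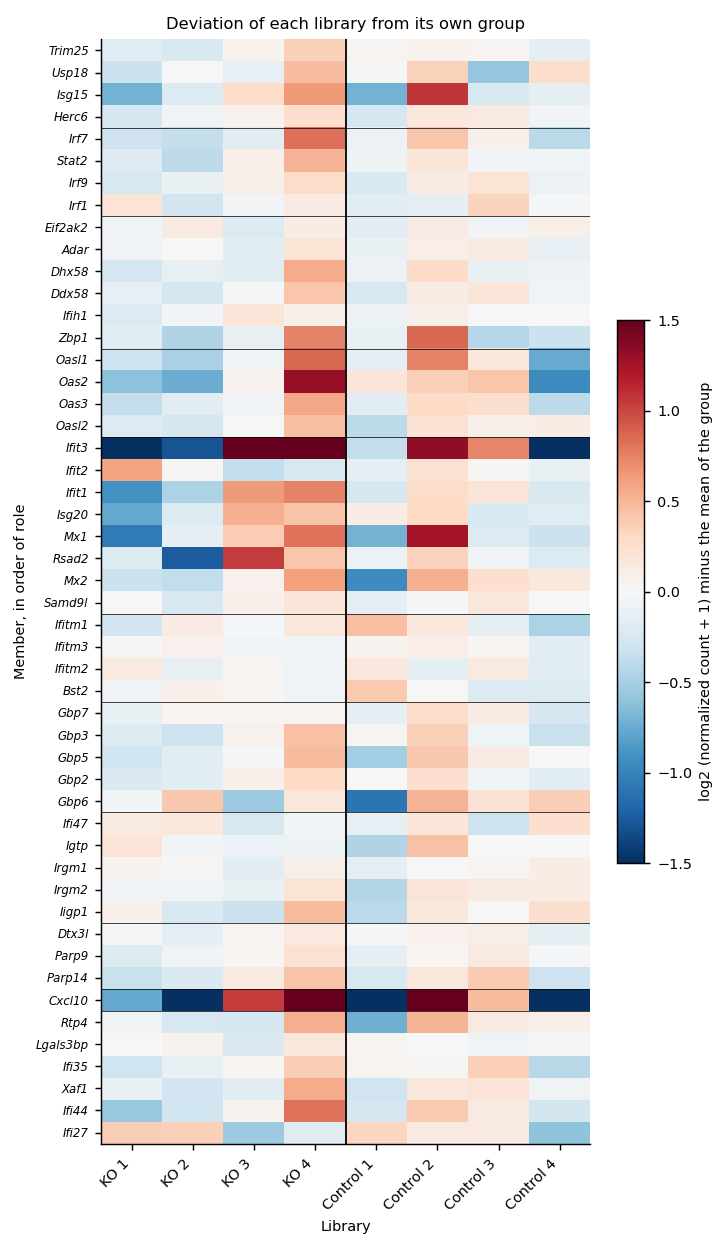
Deviation of each library from the mean of its own group, in log2 (normalized count + 1), for the 50 tested members in order of role, with red above and blue below the group mean and colours capped at 1.5. The columns of Mitol KO replicate 4 and Control replicate 2 are mostly red. Ifit3, Cxcl10, Mx1 and Zbp1 are among the deeper rows in both columns, and Oas2 in the former alone. The rows of Ifitm3 and Ifitm2 are nearly without colour.

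The SD within groups, on the scale of log2 (normalized count + 1), had a median of 0.332 in Mitol KO and 0.274 in Control HSCs over members, beside 0.246 and 0.238 over all tested genes. The SD was larger in Mitol KO than in Control libraries for 29 of 50 members, or 58.0%, beside 51.8% of all tested genes. Tested members with at least 20 mean normalized counts and the widest spread were Cxcl10, Ifit3, Mx1, Oas2, Rsad2 and Isg15, and Ifitm3 had a pooled SD of 0.0891. Cxcl9, which the filter removed, had a pooled SD of 3.23, beside 2.83 for Cxcl10. Without Mitol KO replicate 4, 3 members were called higher (Ifitm1, Ifitm2 and Ifitm3; 6.0%, beside 8.77% of all tested genes) and 5 lower (Irf1, Ifi44, Gbp2, Irgm2 and Iigp1; 10.0%, beside 6.03%), and the median log2 fold change was -0.18. Without Control replicate 2, only Ifitm3 and Irf1 were called (2.0% in each direction, beside 0.995% higher and 1.14% lower of all tested genes) and the median was 0.06. With both libraries left out, a choice made after these values were seen, Ifitm3 was higher (2.0%, beside 5.05%) and Irf1, Gbp2 and Iigp1 were lower (6.0%, beside 3.82%), and the median was 0.00339. In these 3 fits 2501, 359 and 1469 of all genes were called, the same order as the number of members called. Ifnk, the only interferon ligand gene counted, was at 3.17 normalized counts in Mitol KO replicate 4 and at 8.51 in Control replicate 2, within the range of the other libraries. These are few reads of a gene that did not pass the filter, so they do not measure the interferon that reached the cells. Plasmacytoid dendritic cell markers, Bst2 included, summed to 723 in Mitol KO replicate 4, the highest of its group. In Control replicate 2 they summed to 611, below the 622 of Control replicate 1. Bst2, itself a member, made up most of these sums, at 414, 326 and 426 normalized counts in these 3 libraries in turn. Irf8, another of these markers, was the highest of its group in both raised libraries, at 251 in Mitol KO replicate 4 and 209 in Control replicate 2. Macrophage markers summed to 330 in Mitol KO replicate 4, the lowest of its group, and to 303 in Control replicate 2, nearly equal to Control replicate 1. Monocyte markers summed to 230 in Mitol KO replicate 4, the highest of its group, and to 157 in Control replicate 2, below the 169 of Control replicate 1. Of T-cell and NK-cell markers 2 of 8 were in the table, Klrb1c and Cd4, summing to 59.3 to 94.3 normalized counts in Control libraries. In Mitol KO replicate 4 Klrb1c was at 184 normalized counts, with 27.0 to 31.1 in the other Mitol KO libraries, and Cd4 was at 15.9, with 30.1 to 36.0 in the others. In Control replicate 2 they were at 37.2 and 54.3, and their sum of 91.5 was below the 94.3 of Control replicate 4. The part of these markers in the result was not tested.

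**Figure D4:**
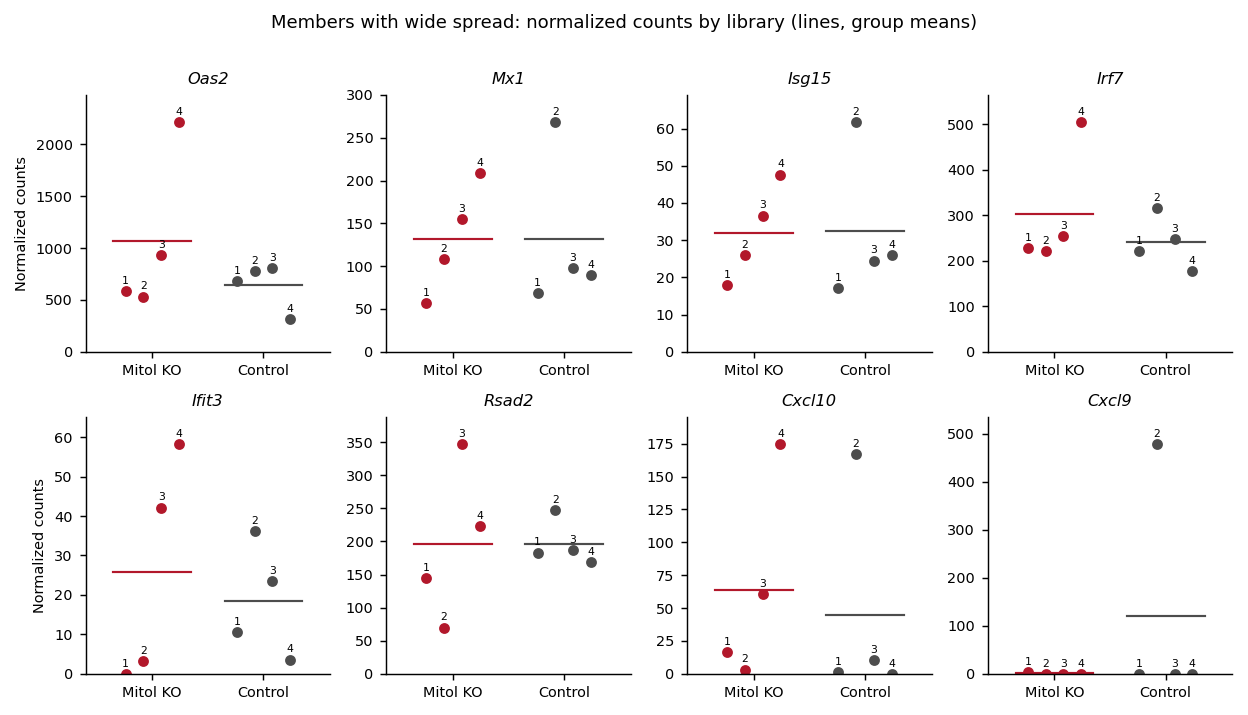
Normalized counts in each library for 8 members with wide spread or of low level, as points with replicate numbers and lines at group means, on axes that start at 0. Mitol KO replicate 4 and Control replicate 2 are the highest of their groups for Mx1, Isg15, Irf7, Ifit3 and Cxcl10, and Cxcl9 reached 478 normalized counts in Control replicate 2 alone.

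Genes around the set in the pathway were examined as well. Of 8 interferon ligand genes 1 was in the table, whose rows hold at least 11 counts over the libraries. It was Ifnk, at 1.88 to 10.2 normalized counts, and it did not pass the filter. Of 17 tested genes for receptors and signalling 2 rose and 2 fell, Irf2 among the latter, where 4.68% of all tested genes were called higher and 3.75% lower. Socs3, an inhibitor of cytokine signalling, rose by 2.80 on the log2 scale (standard error 0.51, edgeR, adjusted p = 0.0107), at 629, 700, 1789 and 2177 normalized counts in Mitol KO and at 194, 262, 260 and 43.1 in Control HSCs. Ifnar2, a chain of the type I receptor, rose by 0.43 (edgeR, adjusted p = 0.0305). Irf2, which competes with IRF1 for the same sites, fell by 0.38 (edgeR, adjusted p = 0.0434). Socs3 was called in 8 of 8 fits that left out a library, Ifnar2 in 4 and Irf2 in 1. The call of Ifnar2 was lost without Mitol KO replicate 1 or 3 or Control replicate 2 or 4 (adjusted p up to 0.0828), and that of Irf2 without any library but Mitol KO replicate 4 (adjusted p up to 0.128).

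Of 15 tested genes for sensing upstream of interferon, read against the same 4.68% and 3.75% of all tested genes, 1 rose, the adaptor Myd88 (0.53, edgeR, adjusted p = 0.0270), and 2 fell, the kinase gene Ikbke (-0.51, edgeR, adjusted p = 0.0281) and the transcription factor gene Irf5 (-0.67, edgeR, adjusted p = 0.0327). Myd88 was not called without Mitol KO replicate 2 or 3 or Control replicate 2 or 3 (adjusted p up to 0.0819). Ikbke was called without Mitol KO replicate 4 or Control replicate 1 and Irf5 without Mitol KO replicate 4 or Control replicate 3, with adjusted p up to 0.0830 and 0.0922 in the other fits. A further list of interferon-stimulated genes outside the set had 47 tested, of which 2 rose and 4 fell, Gbp8, Tgtp2 and Gbp4 among the latter, again beside 4.68% and 3.75% of all tested genes. Gbp8 (-1.07, edgeR, adjusted p = 0.0127) and Tgtp2 (-0.89, edgeR, adjusted p = 0.0129), of the same GTPase families as Gbp2 and Irgm2, fell in every fit that left out a library, and their groups did not overlap. Gbp4 (-1.51, edgeR, adjusted p = 0.0358) was called in 3 of those fits. The spans of Gbp8 and Gbp4 overlap on the same strand of chromosome 5. Windows shared with other genes were computed for members only, so counts of Gbp8, Gbp4 and Tgtp2 may hold or lack reads of relatives. Lgals9, a galectin (0.55, edgeR, adjusted p = 0.0158), rose in all 8 fits and Ly6e, a surface protein that affects viral entry (0.35, edgeR, adjusted p = 0.0311), in 4. Gbp4 kept its call without Mitol KO replicate 4 or Control replicate 1 or 3 and reached an adjusted p of 0.109 otherwise. Ly6e lost it without Mitol KO replicate 3 or Control replicate 2, 3 or 4 (adjusted p up to 0.0960).

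Markers of other blood cells were examined, and 0 of those tested passed the threshold. Tested were 7 of 8 macrophage, 4 of 8 erythroid, 3 of 7 plasmacytoid dendritic cell and 2 of 6 monocyte markers. Only 2 of 8 T-cell and NK-cell, 1 of 8 neutrophil and 1 of 7 B-lineage markers were tested, so little was checked there. The antibodies listed in the study's methods include some against erythroid, T-cell, B-cell and myeloid surface antigens, which a Lineage- gate leaves out. Of 8 macrophage markers 7 were tested and all 7 were above 0, with sums of 330 to 478 normalized counts in Mitol KO and 183 to 303 in Control libraries. Monocyte markers summed to 158 to 230 and 114 to 169, neutrophil markers to 16.9 to 36.6 and 50.1 to 88.9, and B-lineage markers to 136 to 150 and 145 to 204. Erythroid markers were the exception in level, at 4251 to 4849 and 4158 to 6330, of which Car2, a carbonic anhydrase gene, made up 3631 to 4550 in Mitol KO and 3885 to 6021 in Control libraries. The macrophage sums were separate between the genotypes in the direction of Ifitm3, and their part in the result was not tested.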

How the data were processed

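The authors reverse-transcribed RNA of 100 sorted HSCs, prepared libraries with Nextera XT and sequenced single-end reads of 75 bp; the submitters' notes name STAR, SAMtools, Subread and mm39. The annotation and strand setting are not given in the sources used here. The authors deposited raw counts per gene, 23094 rows with at least 11 counts each. Rows without a symbol (1029, 0.335% to 0.467% of a library) stayed out.

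The main test was edgeR's (version 4.0.16) quasi-likelihood test with TMM factors, filterByExpr, condition alone and Benjamini-Hochberg adjustment over all tested genes. DESeq2 (version 1.42.0) and limma-voom (version 3.58.1) were alternatives, besides other normalizations and filters, a replicate block and each library left out. The fits were tested on simulated counts. Positions came from GENCODE vM39 on GRCm39 and promoter windows from a RefSeq table on GRCm38.p6.

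Members and lists were chosen with earlier results of these data known. Named in full were members past the threshold, the 10 lowest p-values, the 8 highest levels per kb, the 6 largest SDs and Isg15, Irf7, Stat2, Irf9, Mx1 and Ifit1. Genes of the pathway and HSC lists past the threshold (3 are not reported here), Marchf5 and the antisense genes at Irf1 (the last chosen after values were seen) were added, and the remaining members are given by their log2 fold changes or ranges. Depth and 100 cells per library limit precision.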

Additional observations from a re-analysis of the deposited data

Results flagged for a closer look

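In 14 of 106 groups of 4 libraries, 1 library stood apart from the other 3 by Dixon's ratio at the 95% critical value. Chance flags about 1 in 20 groups only where values are normally distributed. The share over all tested genes was not computed, so the number of flags is not a result about the members. The members share libraries, so the flags are not independent. Control replicate 2 was the one apart in 6, always as the highest: Stat2 at 619.3 normalized counts, Dhx58 at 430.9, Zbp1 at 245.8, Mx1 at 268.1, Cxcl9 at 477.8 and Cxcl10 at 167.1. Mitol KO replicate 4 was apart in 3, again as the highest, for Irf7 at 504.7, Dhx58 at 494.1 and Xaf1 at 419.0. Dhx58, the helicase LGP2, was thus flagged in both groups. Mitol KO replicate 1 was apart in 3, as the lowest for Gbp7 at 1052, as the highest for Igtp at 526.7 and as the highest for Cxcl9 at 3.131, which are 4 reads. Control replicate 4 was the lowest for Trim25 at 1396, and Control replicate 1 was the lowest for Irgm2 at 344.2. What sets these libraries apart was not tested.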

How the results depend on the processing

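Over all genes, 1386 were called, with 2315 by DESeq2 and 359 to 2501 when a library was left out, and the cause was not tested. Members called higher were 2, with 4 by DESeq2, 4 at an adjusted p under 0.1, 5 at an unadjusted p under 0.05, and 1 to 4 with a library left out. Members called lower were 1, with 2 under upper-quartile factors, library totals or a filter of 50 mean counts, 4 by DESeq2, 5 at an adjusted p under 0.1, 7 at an unadjusted p under 0.05, and 1 to 5 with a library left out. Leaving out Mitol KO replicate 4 and Control replicate 2 together, chosen after seeing the data, gave 1 higher and 3 lower. Members whose groups did not overlap were 4, beside 8.17% of all tested genes higher and 7.18% lower. With a library left out they were 4 to 11. Fewer libraries separate more easily in any gene. The share of all tested genes was not computed for that range, so it is not a result about the members. Counts of members called that have no such share here or above are likewise not read as a result. With the replicate block, 1652 genes were called, 3 members higher (Ifitm1, Ifitm2 and Ifitm3) and 1 lower (Irf1). Replicate numbers did not pair the libraries (correlations of same-numbered deviations 0.08, -0.07, 0.05 and 0.07). For 23 named members over 16 settings, 340 values kept their direction and side of the threshold or did not pass it, 20 passed it anew, 5 lost it (all Ifitm1 with a library left out) and 0 called values reversed. The limits are 4 libraries a group, 100 cells each and an untested origin of the libraries.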
